A study of Mus musculus with 31 samples.

Results

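The transcripts of 9 acinar digestive proteases were compared across sorted cells of the mouse pancreas at postnatal day 2. The genes were chosen by symbol (Cpa1, Cpb1, Ctrb1, Ctrc, Ctrl, Cela1, Cela2a, Cela3b and Prss2), and all 9 were found among the 38283 genes of each table. After trypsin-EDTA dissociation, YFP+ (mesenchymal) and YFP- (non-mesenchymal) cells were sorted, and 2 ng of total RNA from each sample was amplified and sequenced with 50 bp single-end reads. All mice were C57BL/6 and all carried Nkx3.2-Cre, controls included. This Cre is expressed from Nkx3.2, a gene of the pancreatic mesenchyme, and the series describes the deletions as specific to the mesenchyme, so acinar cells belong to the non-mesenchymal fraction that was not targeted. In the Igf2 model the deletion group was Igf2+/fl; Nkx3.2Cre/+ and its control group Igf2+/+; Nkx3.2Cre/+. In the H19DMD model the deletion group was H19DMDfl/+; Nkx3.2+/Cre and its control group H19DMD+/+; Nkx3.2+/Cre. The labels do not say which parent passed on the floxed allele. Values of 21 of the 31 samples were used: non-mesenchymal Igf2 control (n = 4) and Igf2 deletion (n = 3), and, for the H19DMD model, non-mesenchymal control (n = 3) and deletion (n = 4) and mesenchymal control (n = 3) and deletion (n = 4). The other 10 samples, among them all 8 mesenchymal samples of the Igf2 model, were not analysed here. The labels do not say whether a replicate is 1 animal or a pool, so the p-values measure the spread between these samples.

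Acinar cells make up most of the exocrine pancreas and package digestive enzymes as inactive zymogens into apical granules. After release into the gut, enteropeptidase activates trypsinogen, and trypsin then activates the other proteases. Igf2 encodes an imprinted growth factor that is strongly expressed in fetal mesenchyme, and the H19 differentially methylated domain is the control region that insulates Igf2 from shared enhancers on the maternal chromosome.

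Among the 9 genes, Prss2 encodes an anionic trypsinogen. Ctrb1 encodes chymotrypsinogen B, Ctrc the chymotrypsinogen that also degrades trypsinogen, and Ctrl a chymotrypsin-like protease. Cela1, Cela2a and Cela3b encode elastase-type endopeptidases, while Cpa1 and Cpb1 encode carboxypeptidases that trim residues from the C-terminal end. In GRCm38 (GENCODE M21), Prss2 lies at chr6:41521787-41525079 and Cpa1 at chr6:30639218-30645363, both on the plus strand. The other 7 are on the minus strand, with Ctrb1 at chr8:111686519-111691010, Ctrl at chr8:105932003-105933862, Cpb1 at chr3:20248264-20275733, Cela1 at chr15:100674421-100687921 and Cela3b at chr4:137420999-137430540. Ctrc (chr4:141814962-141846359) and Cela2a (chr4:141814962-141826160) are annotated as overlapping genes on the same strand. Reads of the overlap cannot be assigned to either gene alone: 17.7% of the 50-base sequences of Ctrc transcripts also occur in another gene, as do 15.6% of those of Cela2a. The share was 19.2% for Cela3b, all of it with Cela3a, and 7.83% for Prss2, with other trypsinogen genes. Levels of these 4 genes are therefore less certain than those of Cpa1, Cpb1, Ctrb1, Ctrl and Cela1, for which no such sequence was shared.

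The start regions of 4 members are shown as the 250 bases before the RefSeq start (GRCm38.p6), read 5′ to 3′ on the gene's strand. Whether these regions bear on the correlations between members, given below, was not tested. RefSeq promoter entries matched 8 of the 9 members by symbol, Ctrc being the one without an entry. Capitals mark CACCTG and TTTCCC on either strand, where the reverse strand reads CAGGTG and GGGAAA, and TATAAA, searched on the gene's strand only. CACCTG and TTTCCC are the letters of the E-box and the TC-box. The acinar PTF1 complex, which includes Ptf1a and Rbpjl, is known to bind both. The window of Cela1 is chr15:100687921-100688170, that of Prss2 is chr6:41521526-41521775, and the windows of Cela3b and Ctrb1 are chr4:137430521-137430770 and chr8:111691011-111691260. Cela1 is shown for its pair of neighbouring motifs, Prss2 for holding all 3 motifs, Cela3b for its repeated CACCTG and Ctrb1 as the most abundant transcript.
Cela1: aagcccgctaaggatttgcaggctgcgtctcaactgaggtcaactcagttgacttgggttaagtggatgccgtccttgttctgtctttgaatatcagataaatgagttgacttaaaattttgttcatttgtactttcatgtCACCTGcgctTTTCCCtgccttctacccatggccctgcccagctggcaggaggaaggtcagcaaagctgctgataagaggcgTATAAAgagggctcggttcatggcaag
Prss2: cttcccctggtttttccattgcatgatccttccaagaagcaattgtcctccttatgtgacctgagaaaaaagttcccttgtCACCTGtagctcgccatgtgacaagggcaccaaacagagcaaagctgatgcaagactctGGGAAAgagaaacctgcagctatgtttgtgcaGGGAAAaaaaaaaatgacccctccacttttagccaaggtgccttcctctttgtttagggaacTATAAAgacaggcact
Cela3b: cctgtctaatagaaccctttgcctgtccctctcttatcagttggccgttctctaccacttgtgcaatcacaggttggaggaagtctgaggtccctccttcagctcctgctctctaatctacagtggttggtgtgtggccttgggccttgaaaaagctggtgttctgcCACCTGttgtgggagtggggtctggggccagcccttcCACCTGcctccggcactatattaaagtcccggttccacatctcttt
Ctrb1: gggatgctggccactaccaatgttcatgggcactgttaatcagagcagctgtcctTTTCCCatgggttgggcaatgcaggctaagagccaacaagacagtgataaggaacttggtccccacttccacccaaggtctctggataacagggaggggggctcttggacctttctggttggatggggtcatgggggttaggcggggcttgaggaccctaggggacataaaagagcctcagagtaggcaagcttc
CACCTG was present in 6 of the 8 windows (Cela1, Cela2a, Cela3b, Cpb1, Ctrl and Prss2) and in 17.2% of the 32851 promoter windows of the table. TTTCCC was present in 5 of 8 (Cela1, Cela2a, Cpa1, Ctrb1 and Prss2), against 21.9% of all windows. TATAAA was present in Cela1 and Prss2, against 7.59% of all windows. In Cela1 the 2 motifs stand 4 bases apart, with CACCTG at -109 to -104 and TTTCCC at -99 to -94 from the start. That arrangement, on either strand, was searched for after it had been seen in Cela1, and it occurs in 4 of the 32851 windows. A match of letters describes the window and shows no binding.

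The targeted locus was checked first. In mesenchymal cells of the H19DMD model, Igf2 measured 3876, 4024 and 3648 FPKM in controls and 7923, 7467, 6608 and 6162 in mutants, with no overlap (log2 difference 0.87, limma adjusted p = 0.927). H19 measured 2437, 2446 and 2454 FPKM in controls and 635, 766, 565 and 835 in mutants and fell by 1.82 on the log2 scale (limma adjusted p = 0.0458). In the Igf2 model the cells that carry the deletion were not analysed here, so its labels could not be checked at the targeted gene. Igf2 measured 93.5 ± 33.8 FPKM (SD, n = 4) in non-mesenchymal controls of that model and 78.9 ± 61.9 (SD, n = 3) in the deletion group, with overlapping ranges.

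The members spanned a wide range of levels, from Ctrb1 at the top to Ctrc at the bottom. All levels are FPKM, reads scaled to transcript length and library size, and the order of genes given here is that of these values. The RNA was amplified, and whether all transcripts were amplified equally was not tested. In non-mesenchymal Igf2 controls (n = 4, mean ± SD) Ctrb1 stood at 31373 ± 5665 FPKM, followed by Cpb1 at 2289 ± 726, Cela2a at 1525 ± 419, Prss2 at 860 ± 93.1 and Cpa1 at 688 ± 179. Cela3b (498 ± 89.1), Cela1 (260 ± 45.4), Ctrl (65.6 ± 14.2) and Ctrc (28.7 ± 7.64) were lower. Ranges over the 4 libraries overlapped between Cpb1 and Cela2a, between Prss2 and Cpa1 and between Cpa1 and Cela3b, but not between the other neighbours in this order. Ctrb1 had the highest FPKM of all 21100 protein-coding genes in each of the 14 non-mesenchymal libraries. Cpb1 ranked between 3 and 15 in those of the Igf2 model, whereas Ctrc ranked between 669 and 3806.

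Ctrb1 dominated the protease transcripts in every group. It gave 83.6% ± 0.919 of the summed FPKM of the 9 genes in Igf2 controls and 86.0% ± 2.30 in the Igf2 deletion group. Its share was 82.9% ± 2.40 and 84.1% ± 2.15 in non-mesenchymal H19DMD controls and mutants, and 83.2% ± 2.31 and 83.5% ± 3.12 in the mesenchymal ones. The carboxypeptidases gave 7.81% ± 1.04 in Igf2 controls and 6.25% ± 0.769 in the deletion group, and the elastases 6.05% ± 0.501 and 5.63% ± 1.74. Prss2 gave 2.32% ± 0.256 and 1.91% ± 0.470. In the Igf2 model the ranges of deletion and control libraries overlapped for each of these shares. Cpb1 was second to Ctrb1 in each library except 1 of the Igf2 deletion group, where Cela2a was second.

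**Figure D1:**
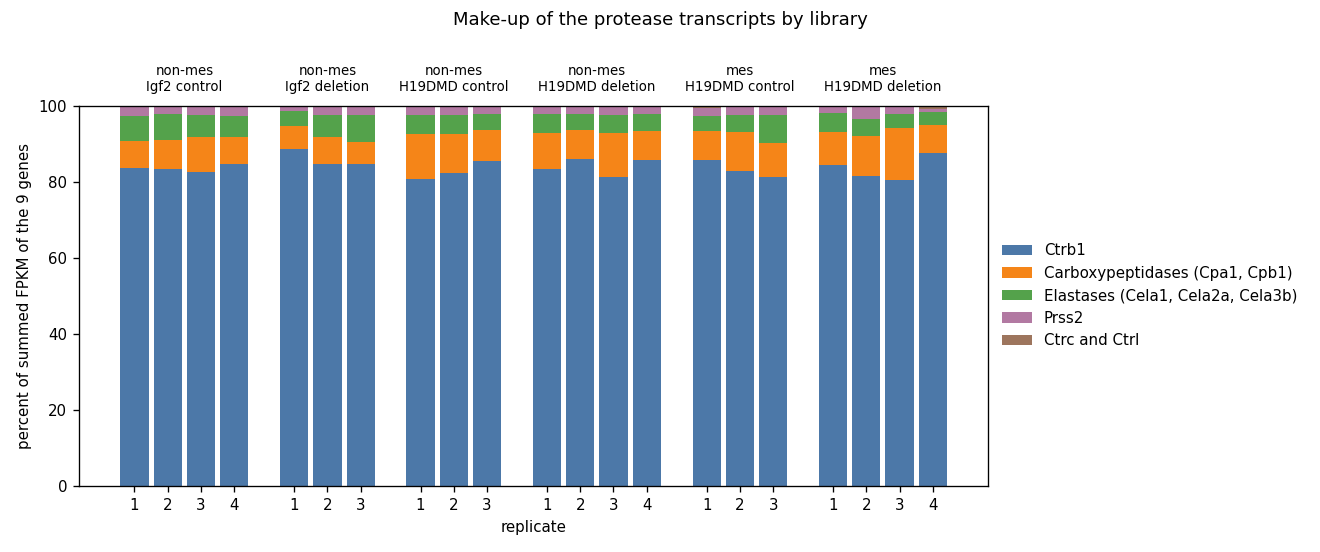
Share of the summed FPKM of the 9 genes (percent, vertical axis from 0) given by Ctrb1, the carboxypeptidases, the elastases, Prss2, and Ctrc with Ctrl, in each of the 21 libraries. Each bar is 1 library, and Ctrb1 takes 80.5% to 88.6% of every bar, mesenchymal libraries included.

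The first comparison asked whether acinar transcripts differ when the neighbouring mesenchyme carries the Igf2 deletion. All 9 proteases stood higher in the YFP- cells when Igf2 was deleted in the mesenchyme, at 1.97 to 2.64 times the control mean, and for all 9 the 3 deletion libraries lay above the 4 control libraries. Such a separation was found for 2.65% of the 17441 genes tested. No member passed the threshold across all genes (limma adjusted p = 0.638 to 0.919), although the unadjusted p was below 0.05 for 9 of 9, against 5.28% of all genes tested (2.91% as higher). In all, 11 genes (0.0631%) passed in this comparison. The members' median log2 difference was 1.23 on the log2(FPKM + 1) scale, against -0.03 over all genes tested. In a bulk sample, fewer cells of a type and less RNA per cell cannot be told apart, and the same holds for more of either.

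Prss2, the trypsinogen, measured 861, 910, 940.0 and 729 FPKM in the controls and 1347, 2329.6 and 1856 in the deletion libraries. The lowest deletion library was still above the highest control, and the log2 difference was 1.07 (SE 0.22, 95% interval 0.55 to 1.59, limma adjusted p = 0.638).

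Ctrb1, chymotrypsinogen B, measured 27356, 37042, 35376 and 25717 FPKM in the controls and 86436, 86749.6 and 75462 in the deletion libraries. This was the largest ratio of means among the 9, at 2.64, and the 3 deletion libraries stood close together, with a coefficient of variation of 7.76% against 18.1% in controls. The log2 difference was 1.42 (SE 0.30, 95% interval 0.72 to 2.11, limma adjusted p = 0.639). Ctrc measured 23.7, 34.0, 36.3 and 20.7 FPKM in controls and 53.8, 76.2 and 87.0 in deletion libraries. Its log2 difference was 1.32 (SE 0.27, limma adjusted p = 0.638). Ctrl measured 46.6, 79.4, 72.9 and 63.6 against 103, 222 and 169 FPKM. Its deletion libraries were the most spread of the 9 genes, with a coefficient of variation of 36.2%, and its log2 difference was 1.27 (SE 0.30, limma adjusted p = 0.831).

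The elastases followed one another closely from library to library. Cela1 measured 249, 281, 308 and 202 FPKM in controls and 382, 608 and 647 in deletion libraries. Cela2a measured 1327, 2082, 1582 and 1108 against 2494, 3917 and 4359, and Cela3b 495, 571, 552 and 373 against 854, 1369 and 1502. In all 3 the first deletion library was nearest to the controls. Their log2 differences were 1.05 (SE 0.24), 1.23 (SE 0.29) and 1.29 (SE 0.26), with limma adjusted p = 0.789, 0.831 and 0.638.

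The carboxypeptidases showed another order among the deletion libraries. Cpa1, which removes aromatic and aliphatic C-terminal residues, measured 544, 868, 817 and 525 FPKM in controls and 1449, 1827 and 1396 in deletion libraries. Cpb1, which removes basic ones, measured 1797, 2604, 3160.0 and 1596 against 4424, 5468 and 3618. The log2 differences were 1.20 (SE 0.24, limma adjusted p = 0.638) and 1.01 (SE 0.30, limma adjusted p = 0.919), the latter being the smallest of the 9. The third deletion library was the lowest for Cpa1, Cpb1 and Ctrb1, whereas the first was the lowest for the other 6 genes. Among controls, replicate 4 was the lowest for 8 of 9.

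**Figure D2:**
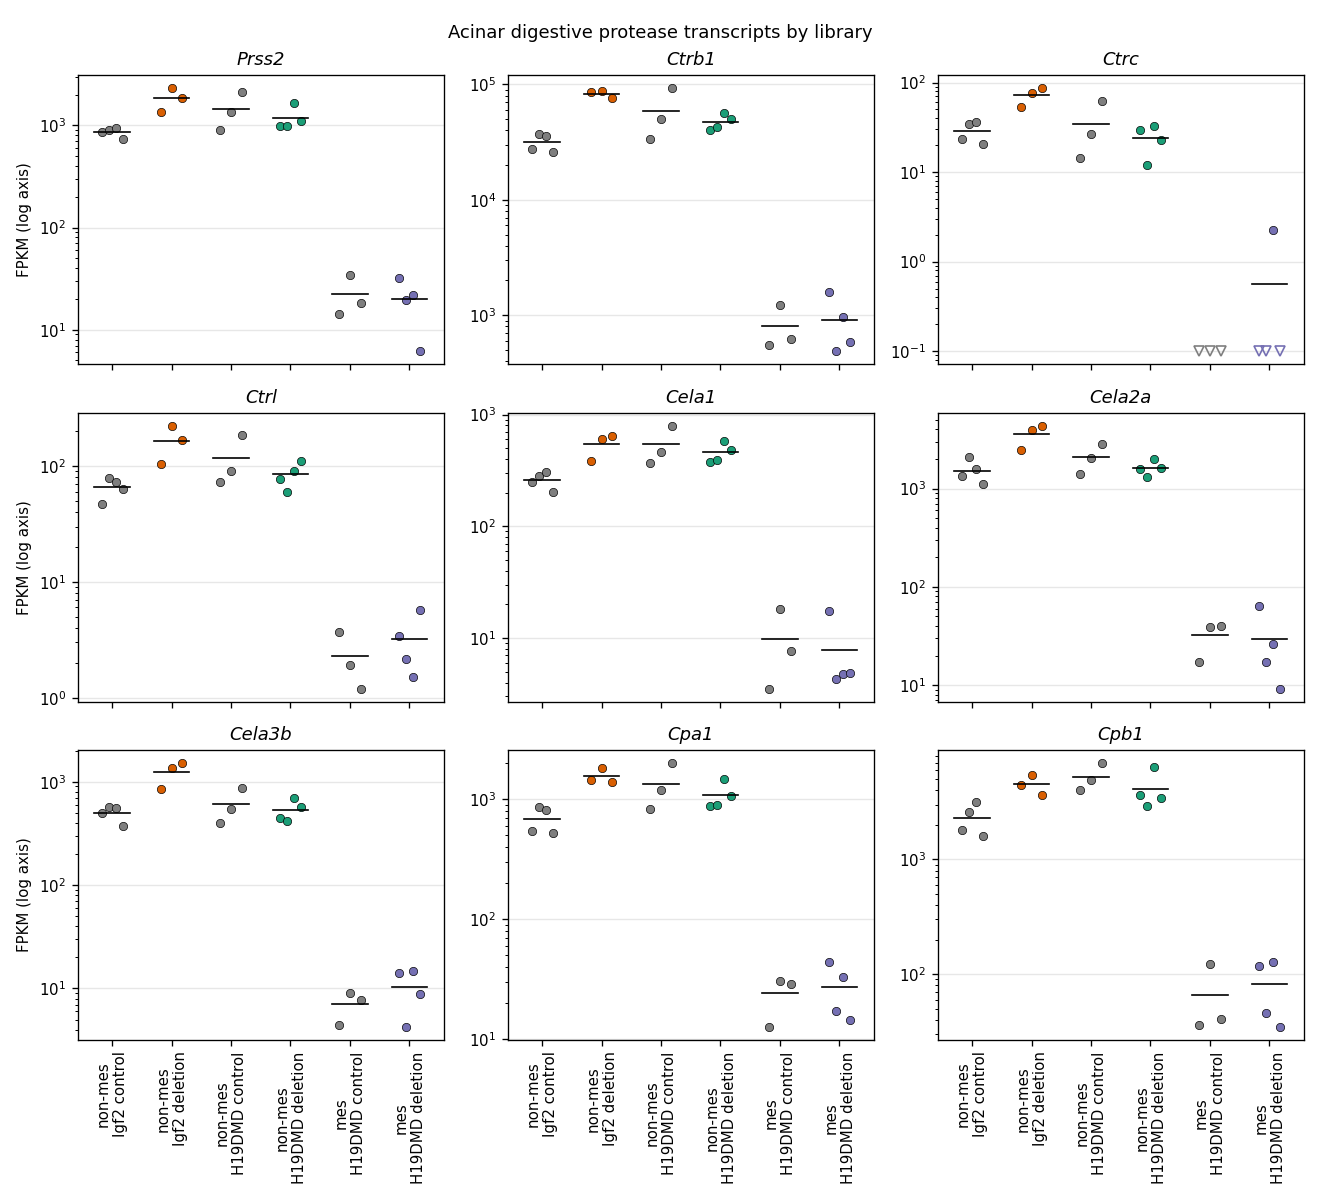
FPKM of each protease in every library (points, log axis) by group, with the group mean as a line and open triangles for libraries where Ctrc is listed at 0. The 3 Igf2 deletion libraries lie above the 4 controls in all 9 panels, and the mesenchymal libraries lie far below the non-mesenchymal ones.

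Summed over the 9 genes, the Igf2 controls held 32700.2, 44472, 42844 and 30336 FPKM and the deletion libraries 97543, 102567 and 89096. As a share of all FPKM, short features under 200 nt left out, this was 5.83% to 7.99% in controls and 12.98% to 14.3% in deletion libraries. FPKM is a relative measure, so higher values of a few abundant genes lower those of all others in the same library. After rescaling each library to the total left without acinar genes and short features, the median over all genes moved from -0.03 to -0.17 and that of the members to 1.07, which is 1.24 above the former. Leaving out each library in turn kept the members' median between 1.08 and 1.38, with 0 members passing each time.

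Other acinar genes were set beside the 9. Of 11 further pancreatic proteases listed, 9 were measured, and all 9 had a positive difference with a median log2 of 1.44. None passed the threshold. The most abundant of them, 2210010C04Rik, a gene of the trypsinogen family, measured 959 ± 239 FPKM in controls (n = 4) and 2586 ± 639 in deletion libraries (n = 3). Of 15 other acinar enzymes and granule proteins tested, 15 were positive with a median of 1.06 and 0 passed. Clps, the cofactor of pancreatic lipase, measured 3648 ± 868 and 8289 ± 1561 FPKM, and Pnliprp1, a lipase-related protein, 1650 ± 426 and 3366 ± 369. Among 7 protease inhibitors and regulators tested, 7 were positive, the median was 0.41 and 0 passed. Spink3, the trypsin inhibitor packed with the zymogens, measured 251, 518, 492 and 265 FPKM in controls against 778, 1282 and 880.1 in deletion libraries, a log2 difference of 1.41 (SE 0.34, limma adjusted p = 0.859). Ctsl, a lysosomal protease, stood at 102 ± 30.4 and 98.9 ± 3.49.

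As a list, the transcription factors of acinar cells did not share this direction. Of 14 tested, 7 were positive and 7 negative, from -0.44 to 0.97, with a median of -0.00 and 0 past the threshold. Xbp1, a factor of the secretory stress response, measured 79.6 ± 18.0 FPKM in controls and 97.1 ± 33.2 in the deletion group, and Onecut1 46.9 ± 11.3 and 34.5 ± 7.05. Ptf1a and Rbpjl, named here for the motifs above after their values had been seen, differed by -0.08 (SE 0.46, limma adjusted p = 0.988) and 0.97 (SE 0.46, limma adjusted p = 0.919). Of 15 genes of stimulus and secretion tested, 8 were positive and 7 negative, with a median of 0.16 and 0 past the threshold. Stxbp2 and Vamp8, which act in granule fusion, stood at 163 ± 45.9 against 190.1 ± 59.8 and at 59.4 ± 14.1 against 69.7 ± 14.1 FPKM.

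Markers of other cell types were compared in the same libraries. Leukocyte markers were positive for 9 of 9 tested, with a median log2 difference of 0.47 and 0 past the threshold, and their summed level ran from 875 to 1271 FPKM in controls and from 1168 to 1822 in deletion libraries. Ductal markers were negative for 8 of 10 (median -0.38), cell cycle genes for 19 of 22 (median -0.35) and erythroid markers for 7 of 7 (median -0.55), with 0 past the threshold in each list. Endocrine markers were positive for 9 of 15 (median 0.22), with sums of 6592 to 12992 FPKM in controls and 9920.2 to 20718 in deletion libraries. Mesenchymal markers were negative for 8 of 11 (median -0.10), endothelial markers positive for 6 of 10 (median 0.06), mast cell markers negative for 5 of 6 (median -0.34) and neural markers negative for 6 of 8 (median -0.23), again with 0 past the threshold. No marker of these lists was at 0 in a whole group except Mafa in the deletion group. The part of cell type make-up in the protease differences was not tested.

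**Figure D3:**
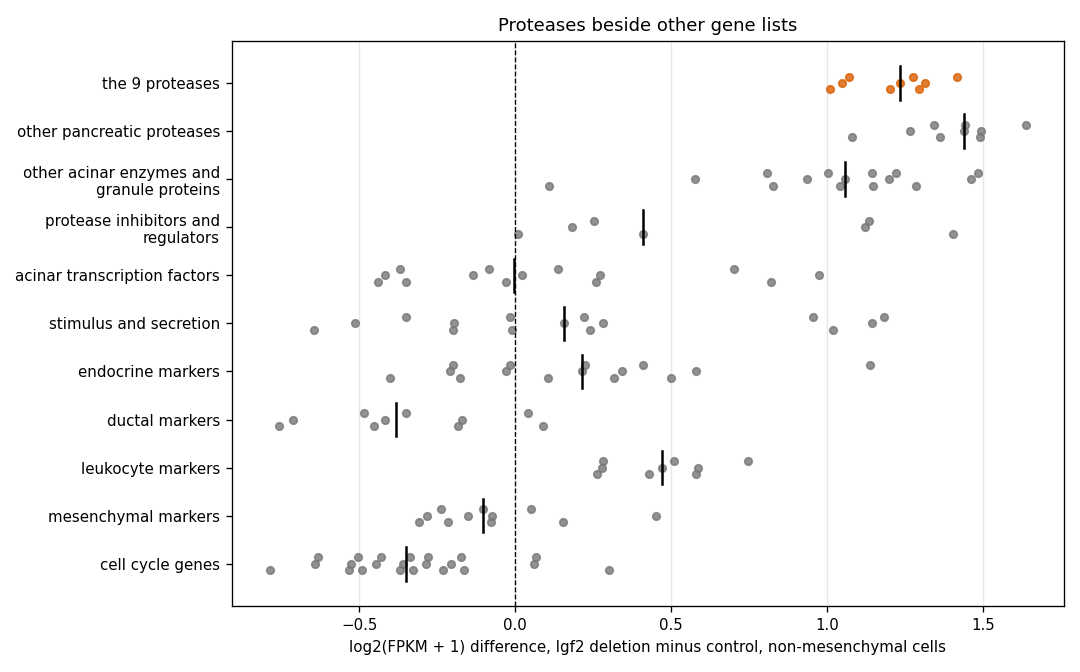
Log2(FPKM + 1) difference between Igf2 deletion and control in non-mesenchymal cells (horizontal axis), 1 point per gene tested and a bar at each list's median. The 9 proteases lie between 1.01 and 1.42, beside the other acinar enzymes, while acinar transcription factors lie on both sides of 0.

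The H19DMD deletion asked the reverse question, since loss of this insulator is known to raise Igf2. In non-mesenchymal cells of that model, deletion and control ranges overlapped for 9 of 9 proteases. Among all genes tested, 2.2% were lower and 3.47% higher in every deletion library than in every control. Differences were negative for all 9, from -0.40 to -0.14 with a median of -0.25 against 0.05 over all genes, and no member passed (limma adjusted p = 0.897 to 0.963, unadjusted p below 0.05 for 0 of 9 and for 5.35% of all genes). Of the 16239 genes tested, 11 (0.0677%) passed. The 95% intervals reached from -1.57 to 0.90 for Ctrc, the widest, and from -0.98 to 0.34 for Cela2a, the narrowest. The difference between the models was not tested, since the tables were normalised separately.

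The negative direction depended on 1 library. Ctrb1 measured 33864, 49793 and 93011 FPKM in the controls and 40476, 42583, 56048 and 50561 in the deletion libraries. Prss2 measured 906, 1349.8 and 2126 against 991, 993, 1648 and 1101, and Cpa1 821, 1181 and 1983 against 874, 889, 1477 and 1058. Control replicate 3 was the highest control for 9 of 9 genes and replicate 1 the lowest for 9 of 9. Without replicate 3 the members' median was 0.092 and 7 of 9 differences were positive.

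The remaining members had the same arrangement. Cpb1 ran from 4067 to 6871 FPKM in controls and from 2940.1 to 6370 in deletion libraries, Cela1 from 370.5 to 796 and from 379 to 577, Cela2a from 1396 to 2837 and from 1306 to 1998, and Cela3b from 396 to 873 and from 421 to 699. The low chymotrypsins ran from 72.4 to 185 and from 59.0 to 111 for Ctrl, and from 14.4 to 62.0 and from 12.05 to 32.7 for Ctrc. Each deletion range ended below the highest control. In these libraries erythroid markers were positive for 7 of 7 tested (median 1.70) and endocrine markers negative for 12 of 15 (median -0.33), with 0 past the threshold, and summed erythroid markers ran from 123 to 442 FPKM in controls and from 154 to 1717 in deletion libraries. Mesenchymal markers were positive for 9 of 10 (median 0.27, sums of 355 to 393 FPKM in controls and 323 to 561 in deletion libraries), ductal markers for 8 of 10 (median 0.30) and mast cell markers for 6 of 6 (median 0.32), again with 0 past the threshold. Igf2 measured 48.2 ± 4.38 FPKM (SD, n = 3) in these controls and 108 ± 50.9 (SD, n = 4) in the deletion group, with overlapping ranges (limma adjusted p = 0.894). The part of these genes or cell types in the protease values was not tested. Other pancreatic proteases were negative for 8 of 9 (median -0.22), other acinar enzymes for 7 of 14 (median -0.03), and acinar transcription factors were positive for 9 of 14 (median 0.07), with 0 past the threshold.

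**Figure D4:**
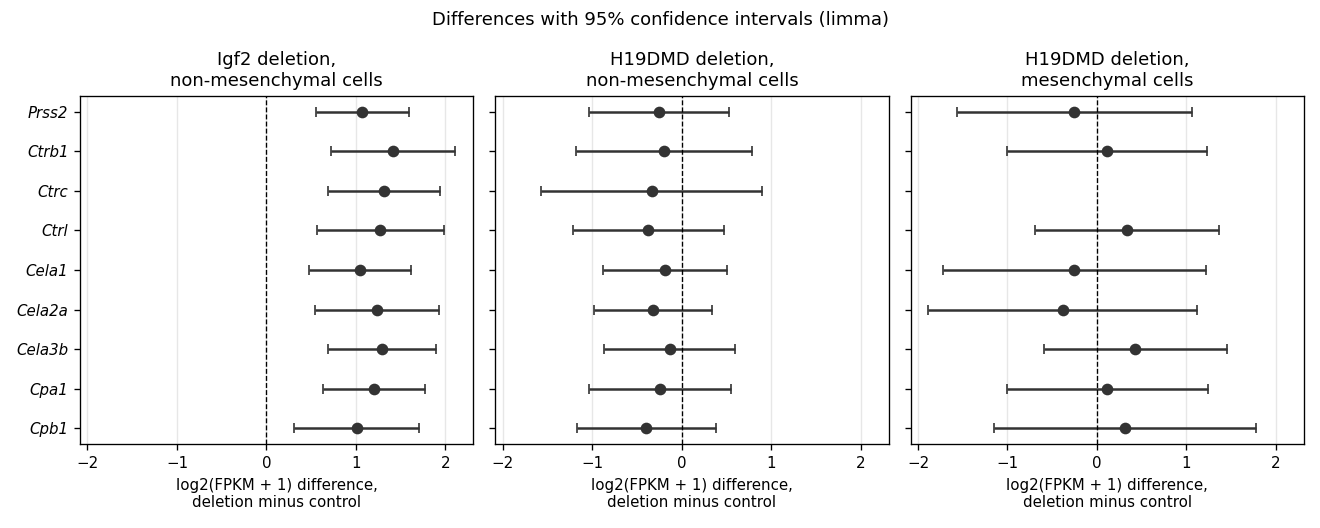
Log2(FPKM + 1) difference between deletion and control for each protease (points) with its 95% confidence interval from limma, in the 3 comparisons of genotype. All 9 intervals lie above 0 in the Igf2 model, and all cross 0 in both fractions of the H19DMD model. The intervals are not adjusted for the number of genes tested, and no member passed the threshold. The difference between the models was not tested. Ctrc was not tested in mesenchymal cells.

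Sorted mesenchymal cells carried a small amount of the same transcripts. Of the 9 members, the 8 other than Ctrc had a mean of at least 1 FPKM in both fractions. They were lower in mesenchymal cells in H19DMD controls, with differences of -5.12 to -6.49 on the log2(FPKM + 1) scale, and 8 of 8 passed the threshold (limma adjusted p = 0.000231 to 0.00116), where 10.3% of the 16732 genes tested passed as lower. In the mutants the differences were -4.41 to -6.07 and 8 of 8 passed (limma adjusted p = 1.37e-05 to 5.62e-05), against 15.1% of 16767 genes. Ctrb1, the highest, measured 552, 1223 and 624 FPKM in mesenchymal controls and 1578, 488, 957 and 585 in mutants. It ranked between 14 and 51 among protein-coding genes in these 7 libraries. Ctrc was listed at 0 in 6 of the 7, and at 2.26 FPKM in mutant replicate 3. It reached the filter only through the non-mesenchymal libraries, so no test of it between fractions is given.

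Non-mesenchymal means were 51.3 (Ctrl) to 85.8 (Cela3b) times the mesenchymal means in controls over the 8 members other than Ctrc, and 26.5 (Ctrl) to 59.2 (Prss2) times in mutants. Put the other way, the mesenchymal sum of the 9 was 1.37% of the non-mesenchymal one in controls and 1.91% in mutants. Other acinar enzymes stood at 1.40% and 1.94%, close to the members, and other pancreatic proteases at 1.59% and 1.89%. Endocrine markers stood at 0.593% and 0.597%, leukocyte markers at 3.64% and 7.08% and ductal markers at 4.88% and 2.18%. Acinar transcription factors stood at 51.6% and 54.2%. Their mean sums in controls were 235 FPKM in non-mesenchymal and 121 in mesenchymal cells. Of these, Xbp1 measured 76.1 ± 7.32 FPKM in non-mesenchymal and 74.1 ± 9.10 in mesenchymal controls (SD, n = 3 each). The remainder came from other factors, so Xbp1 alone did not set the ratio. Onecut1 measured 25.4 ± 8.21 and 0.822 ± 0.297 FPKM in the same controls. Of the 14 factors, 7 reached a mean of 1 FPKM in mesenchymal controls and 5 in mesenchymal mutants, so no count of tests is given for the list. Of Ptf1a and Rbpjl, again named after their values had been seen, Ptf1a was listed at 0 in all 7 mesenchymal libraries. Rbpjl had a mean of 24.2 FPKM in non-mesenchymal and 0.572 in mesenchymal controls. The summed level of the mesenchymal markers ran from 8749 to 10065 FPKM in YFP+ and from 355 to 393 in YFP- controls, and from 7424 to 9387 and from 323 to 561 in mutants, so the fractions did not overlap. Whether the protease reads come from acinar cells in the sort, from free RNA or from the mesenchymal cells themselves was not tested.

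Within mesenchymal cells the H19DMD deletion and control ranges overlapped for 9 of 9 proteases. Among all genes tested, 1.62% were higher and 3.77% lower in every mutant library than in every control. Of the 9 proteases 8 were tested, 5 were positive and 3 negative, the median was 0.11 against -0.07 over all genes, and 0 passed (limma adjusted p = 0.927 to 0.987, unadjusted p below 0.05 for 0 of 8 and for 4.76% of all genes), while 11 of 15856 genes (0.0694%) did. Cpa1 measured 12.7, 30.8 and 28.7 FPKM in controls and 43.8, 17.0, 32.9 and 14.4 in mutants, and Cpb1 35.9, 122 and 40.7 against 118, 45.8, 128 and 34.9. The sign of the median changed when control replicate 1 or mutant replicate 1 was left out and under rescaling without acinar genes, where it was -0.11 against -0.26 over all genes.

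The remaining members were at or below 64.1 FPKM in each mesenchymal library. Cela1 ran from 3.50 to 18.1 FPKM in mesenchymal controls and from 4.31 to 17.6 in mutants, Cela3b from 4.48 to 8.98 and from 4.27 to 14.6, and Ctrl from 1.19 to 3.70 and from 1.51 to 5.71. Cela2a ran from 17.4 to 40.2 and from 9.14 to 64.1, and Prss2 from 14.2 to 34.5 and from 6.17 to 32.3. The interaction, the deletion effect in mesenchymal cells minus that in non-mesenchymal cells, passed for 0 of 9 members, Ctrc entering only through its non-mesenchymal level (limma adjusted p = 0.859 to 0.999, unadjusted p below 0.05 for 0 of 9 and for 6.35% of all genes) and for 2 of 17105 genes (0.0117%). Its members' median was 0.36, against -0.11 over all genes.

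Across the 7 non-mesenchymal libraries of the Igf2 model, correlations between pairs of members on the log2(FPKM + 1) scale ran from 0.85 (Cela2a with Cpb1) to 0.99 (Cela3b with Cela1) over 36 pairs, with a median of 0.93. In the 7 non-mesenchymal libraries of the H19DMD model they ran from 0.69 (Ctrl with Cpb1) to 0.99 (Prss2 with Cpa1), with a median of 0.89. In the 7 mesenchymal libraries the 28 pairs of the 8 members other than Ctrc ran from -0.60 (Prss2 with Ctrl) to 0.90 (Ctrb1 with Cpb1), with a median of 0.73. These are descriptions: the points share library, depth, genotype group and a relative scale. By the smaller of its correlations with the members' mean in both sets of non-mesenchymal libraries, the 5 protein-coding genes most like the members among 12765 were Try10 (0.96), Cel (0.96), Clps (0.95), Prss1 (0.94) and Sycn (0.93), measured over 7 libraries each. All 5 are genes of acinar secretory products or granules.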

How the data were processed

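RNA of sorted mouse pancreas cells at postnatal day 2 was profiled, and the authors deposited FPKM per gene in 1 table for each model, with no counts or library totals. Per the submitters' processing notes, TopHat2 2.0.8, Cufflinks 2.2.1 and GRCm38 were used; strand handling and filters are not given in the sources used here. The labels give 1 sequencing identifier to all libraries of a model, so model and identifier cannot be told apart and no test crosses the tables. Each column was assigned through the library identifier shared by its name and a sample's description, and 8 columns that hold no values were not used. Depth per library is unknown in reads. Relative depth, from the 1st percentile of FPKM times transcript length, spanned 2.56-fold in the Igf2 table and 2.00-fold in the H19DMD table. Correlations between libraries of a group ran from 0.850 to 0.884.

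Differences were tested with limma 3.58.1 (R 4.3.3; eBayes with a trend, two-sided) on log2(FPKM + 1), a scale that understates changes of low genes, and a gene entered a fit if its mean over the libraries compared reached 1 FPKM. Only the groups compared entered a fit. P-values were adjusted by Benjamini-Hochberg over all genes tested, with a threshold of 0.05. The fitting was tested on simulated data. Sharing between genes was counted over 50-base sequences of GENCODE M21 transcripts. Promoter windows came from RefSeq (GRCm38.p6). The members and the 14 comparison lists were chosen with earlier results of these data known. Named genes are the 9 members, Igf2 and H19, of each acinar list any gene past the threshold or else the 2 most abundant, and the 5 genes of most similar pattern. Between fractions many acinar genes passed, and those lists are given by their levels instead, which departs from the rule. Ptf1a, Rbpjl and Mafa were named after their values had been seen, and 1 of the most abundant genes is not reported here. Alternatives changed the pseudocount (0.1, 10), the filter (none, 5 FPKM), the scaling, the variance model, the groups and genes in the fit, the replicate block and each library in turn.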

Additional observations from a re-analysis of the deposited data

Results flagged for a closer look

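In groups of 4 libraries, 3 of the 30 sets of values tested had 1 library far from the rest, where chance flags about 1 in 20 groups. Prss2 in non-mesenchymal H19DMD mutants reached 1648 FPKM in replicate 3, while the other 3 libraries lay between 991 and 1101. Cela1 in mesenchymal H19DMD mutants reached 17.6 FPKM in replicate 1, against 4.31 to 4.83 in the others. Ctrc in mesenchymal H19DMD mutants was at 2.26 FPKM in replicate 3 and listed at 0 in the others. With 3 libraries at 0 any value above 0 in the fourth stands apart by construction, so this one says nothing about chance.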

How the results depend on the processing

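In the Igf2 comparison 0 members passed under every alternative run, and all 9 differences stayed positive. In the H19DMD comparisons and the interaction 0 members passed under every alternative run, and in both comparisons of fractions the 8 other than Ctrc passed under each. The number of genes passing moved more. Among protein-coding genes only it was 0 (Igf2), 1 (H19DMD non-mesenchymal), 0 (H19DMD mesenchymal) and 0 (interaction), with 771, 790, 659 and 933 genes at an unadjusted p under 0.05 in limma. With all groups of the table in 1 fit it was 1 in non-mesenchymal and 5 in mesenchymal cells. For the interaction it was 6 with a pseudocount of 0.1 and 6 with no filter. With a filter at 5 FPKM, 2448 genes (controls) and 3148 (mutants) differed between fractions, and with a pseudocount of 10 the members' medians there were -5.25 and -4.92.

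The labels do not say that a replicate number marks a shared animal, and no correlation between the deviations of same-numbered libraries was over 0.1. Between genotypes they ran from -0.051 to 0.033. Between fractions all 7 were positive (0.0074 to 0.067) and the same number was the best match in 5 of 7. Whether YFP+ and YFP- libraries of a number are related was not tested. With the replicate block, 2, 5 and 7 genes passed in the Igf2, H19DMD non-mesenchymal and H19DMD mesenchymal comparisons, and in the last Cela2a was 0.029 and Prss2 0.20. The block gave 2660 and 4141 genes between fractions and 2 in the interaction. Rescaling without acinar genes and short features turned the mesenchymal median, Cpa1 and Ctrb1 to -0.11 each. In the interaction, Cela1, Cela2a and Prss2 turned to 0.044, 0.078 and 0.11 with a pseudocount of 10 and to 0.053, 0.075 and 0.13 with median-ratio scaling.

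Leaving out each library in turn gave 14 to 37 genes in the Igf2 comparison, 14 to 34 and 13 to 27 in non-mesenchymal and mesenchymal H19DMD cells and 2 to 9 in the interaction. An arm left with few libraries is assumed to vary like the other. In non-mesenchymal H19DMD cells the median ran from -0.55 to 0.092, Cpa1 from -0.54 to 0.092, Ctrb1 from -0.53 to 0.20, Ctrc from -0.82 to 0.20, Ctrl from -0.65 to 0.020, Cela1 from -0.42 to 0.13, Cela3b from -0.40 to 0.17 and Prss2 from -0.55 to 0.064, each positive only without control replicate 3. In mesenchymal cells the median ran from -0.19 to 0.32, Cpa1 from -0.27 to 0.36, Cpb1 from -0.0038 to 0.86, Ctrb1 from -0.21 to 0.46, Cela1 from -0.76 to 0.28, Cela2a from -0.87 to 0.029 and Prss2 from -0.54 to 0.20. In the interaction Cpa1 ran from -0.028 to 0.66, Ctrb1 from -0.083 to 0.66, Cela1 from -0.57 to 0.47, Cela2a from -0.54 to 0.35 and Prss2 from -0.32 to 0.45. Depth in reads is unknown, which limits what can be said of Ctrc and Ctrl in mesenchymal cells.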
